A study of Ovis aries with 95 samples.

Results

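TGFB1 and TGFB2, which encode secreted ligands of the transforming growth factor beta family, and ACVR1, which encodes an activin type I receptor, were followed in the developing brain of the sheep. The members were chosen by gene name, from the gene name, accession or description of each array probe, and 3 of the 14346 genes on the array, with 4 of its 15008 probes, answered to these names. TGFB1 and TGFB2 had 1 probe each and ACVR1 had 2 probes, which were averaged. TGFB1 went up with age in cortex, and TGFB2 was lower in the newborn than at 80 d in cortex and brainstem. ACVR1 had its highest mean at 80 d in all 4 regions, and its fall from 80 to 145 d passed in cortex and brainstem. That fall was not shown to differ between regions (limma F test, adjusted p = 0.544). None of the 3 genes passed a test of age in hippocampus.

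The TGFB1 and TGFB2 ligands are made as inactive precursors that are stored outside the cell. Once released they bring together type II and type I receptors, which then phosphorylate SMAD proteins that move to the nucleus. TGFB1 is the ligand on which microglia, the resident macrophages of the brain, depend for their mature state, and TGFB2 is made by neurons, glia and the meninges of the developing brain. ACVR1 is a type I receptor that passes on signals of bone morphogenetic proteins and can also bind activin A, the dimer of the INHBA product.

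Total RNA was taken from cortex, brainstem, hippocampus and hypothalamus of sheep fetuses and of animals 1 d old, called newborn here. The fetuses are labeled as days 80, 100, 120, 130 and 145 of gestation. By the methods those of 100 d were taken over several days up to day 100, and those of 145 d shortly before day 145. The labels name no treatment, strain or genotype, and by the methods no ewe had signs of labor. Each of the 24 groups of region and age had 4 arrays, apart from hippocampus at 100 d with 3, which gave 95 arrays in all, each of 1 sample labeled with Cy3. Each group held 1 set of twins according to the methods, the labels do not mark them, and all arrays were treated as independent, so that p-values measure the spread between these samples. By the methods all 4 regions came from the same animals, so that arrays of different regions share animals, which the tests between regions do not model except where animal is named as a block. The RNA is that of whole tissue, and for every gene below fewer cells of a type and less RNA per cell cannot be told apart. All levels are log2 intensities after background correction and quantile normalization over the 95 arrays, and changes are differences of these levels between ages, tested with limma and adjusted over all genes of the region by Benjamini-Hochberg.

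The probe sequences are shown because they say which transcript each value comes from, and because the ACVR1 probes share no run longer than 5 bases and therefore read different stretches of its transcript. They are as the array files give them, each of 60 bases, 5′ to 3′, in lower case with no base marked.
TGFB1 probe A_70_P051421: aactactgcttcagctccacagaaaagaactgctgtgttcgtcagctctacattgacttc
TGFB2 probe A_70_P031226: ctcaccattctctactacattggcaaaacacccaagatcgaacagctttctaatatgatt
ACVR1 probe A_70_P026786: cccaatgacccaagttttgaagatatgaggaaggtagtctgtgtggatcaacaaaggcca
ACVR1 probe A_70_P026787: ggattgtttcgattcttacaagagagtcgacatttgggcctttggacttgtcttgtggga
The GC content was 38.3% in the TGFB2 probe and 45% in each of the other 3. The second ACVR1 probe was named through its description, and the other 3 through the gene name or accession in the files. The TGFB1 probe was well above background on 92 of the 95 arrays, the TGFB2 probe and the first ACVR1 probe on 95, and the second ACVR1 probe on 92. No spot of these probes carried an outlier mark. The misses of TGFB1 and ACVR1 were all in hippocampus, on 1 array each at 100, 120 and 145 d.

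Between 59.5 and 88.5% of the gene spots of an array were well above background, which takes the place of depth (median 79.8%). Of the 95 arrays, 6 stood apart, with a median correlation under 0.91 with the other arrays of their region, a limit chosen after the data were seen. In hippocampus these were 100 d replicate 3, 120 d replicate 4, 130 d replicate 3, 145 d replicate 4 and newborn replicate 3 (0.864 to 0.907, against 0.925 or more for the others), all on 1 slide of 8 arrays that holds no 80 d array. In brainstem it was newborn replicate 4 (0.892, against 0.969 or more), which has a dim area that none of the 4 probes lies in. Outside that area the array lay at a median of 0.35 above the other newborn arrays, and around the TGFB1 probe and the ACVR1 probes the neighboring spots lay 0.46 to 0.51 above, against -0.04 around the TGFB2 probe, so that brainstem values are also given without it. By the methods each region had 3 slides of 8 arrays, and the cortex and brainstem arrays came from 3 slides each. The hippocampus and hypothalamus arrays came from 4 slides each, some with fewer than 8 arrays of the region. Whether a slide held arrays of more than 1 region is not given here, and region and slide may not be separable. The named markers of hypothalamus (7 genes) averaged 9.25 to 9.73 in the groups of that region and 8.18 to 9.003 in the others, and those of brainstem (SLC6A2 and SLC6A4) 6.88 to 6.99 against 6.61 to 6.76. These brainstem markers were dim, near the lowest level that was well above background (6.48, median over arrays). In some groups of cortex and hippocampus SLC6A4 was well above background on no array. The only named marker of cortex and hippocampus, NEUROD1, lay at 10.57 to 13.02 there. It was also high in brainstem at 80 d (12.75, arrays from 11.06 to 13.74) before 9.43 at 100 d and 7.92 at 145 d. In hypothalamus NEUROD1 averaged 9.39 at 80 d, 9.51 at 100 d (arrays from 8.41 to 11.76) and 7.90 at 145 d. Whether the tissue taken as brainstem or hypothalamus at the early ages was like that of later ages was not tested. This bears on every change from 80 d in both regions. No list of neuron or oligodendrocyte markers had a named probe.

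**Figure D1:**
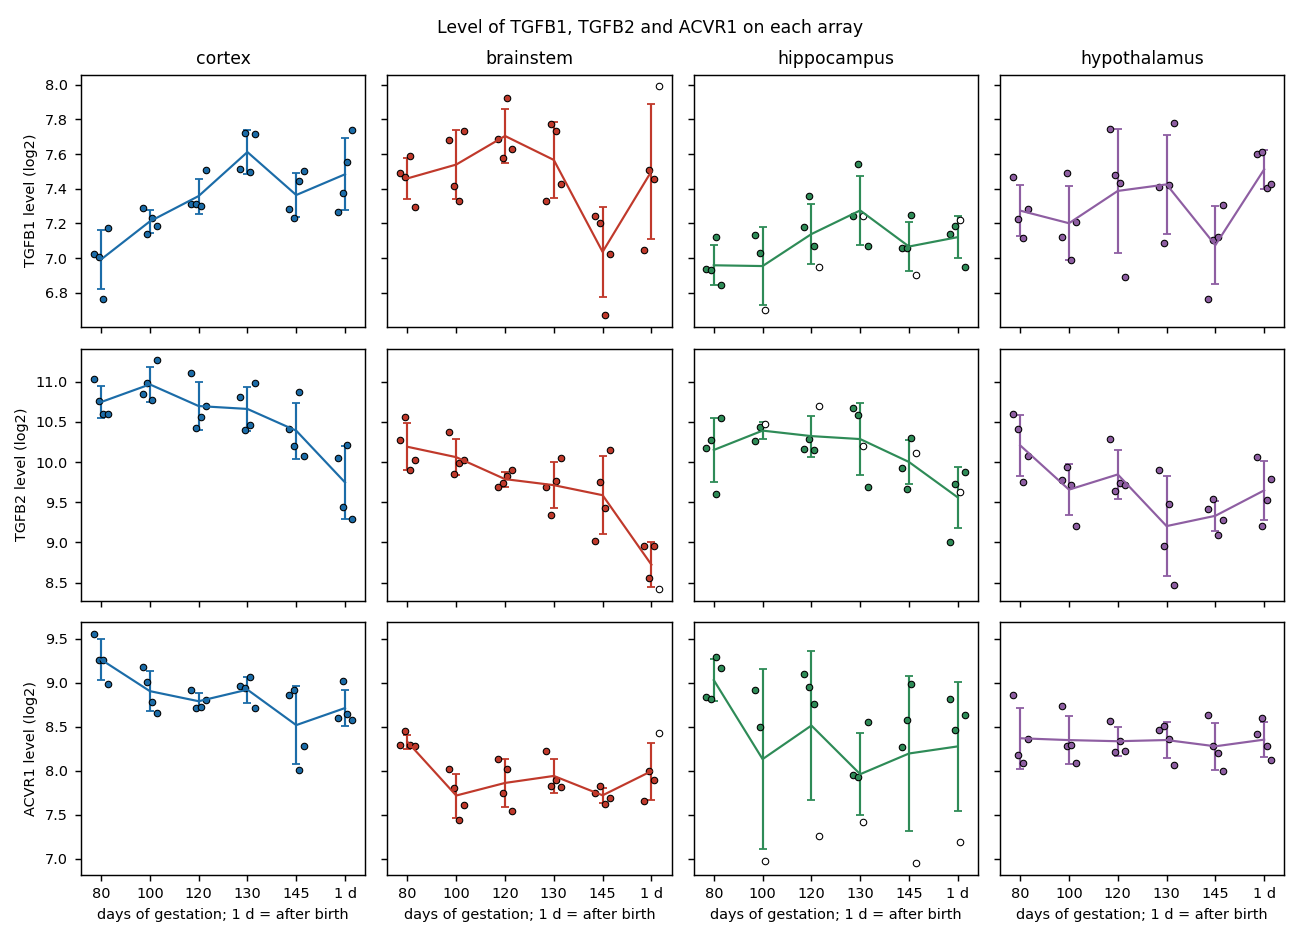
Log2 level of TGFB1, TGFB2 and ACVR1 (vertical axes, normalized intensity) on each of the 95 arrays by age, with 1 column of panels per region, points for single arrays and lines through the group means. Bars are SDs and open points are the 6 arrays that stood apart, and TGFB2 falls to 8.72 in newborn brainstem, TGFB1 climbs from 6.99 to 7.48 in cortex, and single hippocampus arrays lie far below the rest for ACVR1.

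In cortex TGFB1 had its lowest mean at 80 d and a higher one at every later age. The arrays read 7.03, 7.005, 6.77 and 7.17 at 80 d, 7.28, 7.23, 7.45 and 7.50 at 145 d, and 7.27, 7.37, 7.55 and 7.74 in the newborn. All arrays at 145 d and all newborn arrays lay above all arrays at 80 d. TGFB1 rose by 0.49 from 80 d to newborn (SE 0.10, 95% interval 0.28 to 0.70, 1.41-fold, adjusted p = 0.000383, limma), and by 0.37 from 80 to 145 d (adjusted p = 0.00484). The highest mean was at 130 d (7.61 ± 0.12, SD, n = 4), and the last step, from 145 d to newborn, was within the error (0.12, adjusted p = 0.907). The gene is dim, and with the scanner software's processed signal the changes were 1.54 to newborn and 1.18 to 145 d, in the same direction. Within the 3 slides of cortex the change to newborn was 0.25, 0.61 and 0.47.

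Microglial markers also went up from 80 d to newborn in cortex. The 3 named genes of 11 listed (ITGAM, CD14 and CTSS) all rose, where 44.7% of all genes passed, and their mean went from 7.85 at 80 d (arrays from 7.52 to 8.19) to 8.53 at 120 d, 8.54 at 130 d, 8.53 at 145 d and 9.28 in the newborn (8.47 to 9.82). TGFB1 had its highest mean at 130 d and the markers had theirs in the newborn. In brainstem the same 3 genes also rose, from a mean of 8.58 to 9.42, where 42.6% of all genes passed. In cortex the 2 named blood genes of 6 listed averaged 9.46 at 80 d and 10.98 at 120 d. They averaged 10.27 at 130 d, 9.44 at 145 d and 9.70 in the newborn. In brainstem the values at these ages were 9.93, 11.04, 10.76, 10.03 and 9.94. The 4 named endothelial genes of 8 listed averaged 7.64 at 80 d and 7.90 at 130 d in cortex. At 145 d they averaged 7.68 there, and in the newborn 7.67. Of these 4 genes, FLT1 was well above background on no cortex array at 80, 100 or 120 d. The part of these markers in the TGFB1 values was not tested.

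In brainstem TGFB1 had its lowest levels at 145 d. The arrays read 7.49, 7.47, 7.59 and 7.30 at 80 d, then 7.24, 7.202, 6.67 and 7.03 at 145 d, then 7.05, 7.51, 7.46 and 7.99 in the newborn. Those of 80 d lay above all of 145 d, and those of the newborn spread over both. TGFB1 fell by 0.42 from 80 to 145 d (SE 0.16, adjusted p = 0.0488, limma), near the threshold. With 1 array left out the p stayed under the threshold only for 80 d replicate 4, 100 d replicate 3, 120 d replicate 3, 130 d replicate 1, 145 d replicates 1 and 2 and newborn replicates 1 and 4, and for the other 16 arrays it rose to between 0.0506 and 0.183, with a change of -0.30 without 145 d replicate 3. The processed signal gave -0.88 and the slides -0.25, -0.91 and -0.27. From 145 d to newborn the change was 0.46 (adjusted p = 0.111, limma). It was 0.62 without newborn replicate 1 (adjusted p = 0.0191), but 0.30 without newborn replicate 4, the array that stood apart (adjusted p = 0.278). Within the slides that step was -0.18, 0.84 and 0.70. From 80 d to newborn TGFB1 changed by 0.04 (adjusted p = 0.862), or by -0.12 without newborn replicate 4 (adjusted p = 0.529).

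The change of TGFB1 from 80 to 145 d differed between cortex and brainstem. From 130 to 145 d, however, its mean went down in each of the 4 regions. The brainstem step was -0.53 (adjusted p = 0.115, limma), with no overlap of arrays, or adjusted p = 0.0288 without newborn replicate 4. For cortex it was -0.25 (adjusted p = 0.447), for hypothalamus -0.35 (adjusted p = 0.726) and for hippocampus -0.21. With all arrays none of these steps passed, and they were not compared between regions. The change from 80 to 145 d differed over the 4 regions (F test in one limma fit over all arrays, adjusted p = 0.0174, or 0.00419 without the 6 arrays that stood apart), a test added to those planned. With animal, taken as age and replicate number, as a random block the adjusted p was 0.0144, although the labels do not say that a number marks an animal. The change was 0.79 higher in cortex than in brainstem (SE 0.20, adjusted p = 0.00451), and 2.06 higher with the processed signal. Of all genes tested in that fit, 11.2% passed the F test and 11.6% this pair of regions. For the change from 80 d to newborn the regions did not differ by the test (adjusted p = 0.377, where 12.4% of genes passed), but with the processed signal they did (adjusted p = 0.00445).

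In hippocampus and hypothalamus TGFB1 passed no test of age. The 6 group means of hippocampus ran from 6.95 to 7.27, and those of hypothalamus from 7.07 to 7.51, a span of 0.44. In hypothalamus the arrays read 6.77, 7.10, 7.12 and 7.31 at 145 d and 7.60, 7.61, 7.41 and 7.42 in the newborn. The newborn arrays lay above all those of 145 d, yet the difference of 0.44 did not pass (adjusted p = 0.155, limma; 95% interval 0.09 to 0.78). From 80 d to newborn TGFB1 differed by 0.16 in hippocampus (adjusted p = 0.593) and 0.24 in hypothalamus (adjusted p = 0.372).

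TGFB2 was lower in newborn cortex than at 80 d. The arrays read 11.03, 10.76, 10.60 and 10.60 at 80 d, 10.42, 10.20, 10.87 and 10.08 at 145 d, and 10.05, 9.44, 10.22 and 9.29 in the newborn. All newborn arrays lay below all arrays at 80 d, whereas those of 145 d overlapped with both. The fall from 80 d to newborn was -0.999 (SE 0.21, 95% interval -1.43 to -0.57, 2.00-fold, adjusted p = 0.000432, limma), and the slides gave -0.84, -1.16 and -0.85. Through 130 d the group means stayed between 10.66 and 10.97. Neither part of that interval passed on its own, with -0.36 from 80 to 145 d (SE 0.21, adjusted p = 0.184) and -0.64 from 145 d to newborn (adjusted p = 0.293).

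In brainstem TGFB2 reached its lowest level of the whole series, 8.72 ± 0.28 (SD, n = 4) in the newborn. The arrays read 10.28, 10.56, 9.90 and 10.03 at 80 d, 9.02, 9.75, 9.43 and 10.16 at 145 d, and 8.96, 8.56, 8.96 and 8.42 in the newborn. The newborn arrays lay below all arrays of both other ages. TGFB2 fell by 1.47 from 80 d to newborn (SE 0.20, 2.76-fold, adjusted p = 8.61e-06, limma; -1.37 without newborn replicate 4). It fell by 0.86 from 145 d to newborn (SE 0.20, 1.82-fold, adjusted p = 0.0197), the only change of the 3 genes across birth that passed with all arrays. This step was -0.76 (adjusted p = 0.0442) without newborn replicate 4, -0.81 (adjusted p = 0.0529) without 145 d replicate 2 and -0.67 (adjusted p = 0.0759) without 145 d replicate 4, and within the slides it was -0.43, -0.87 and -1.47. From 80 to 145 d TGFB2 fell by 0.60 (adjusted p = 0.0235) with overlapping arrays, and the p rose to between 0.0559 and 0.111 without 80 d replicate 1 or 2 or without 145 d replicate 1 or 3, with -0.41 without 145 d replicate 1. The slides gave -1.03, -0.47 and 0.13 for that step.

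In hypothalamus TGFB2 was lowest at 130 and 145 d. The arrays read 10.60, 10.41, 9.75 and 10.07 at 80 d, 9.91, 8.95, 9.48 and 8.47 at 130 d, 9.42, 9.54, 9.09 and 9.28 at 145 d, and 10.07, 9.20, 9.53 and 9.79 in the newborn. All arrays of 145 d lay below all of 80 d, and those of the newborn overlapped with both. TGFB2 fell by 0.88 from 80 to 145 d (SE 0.26, 1.83-fold, adjusted p = 0.0305, limma). The call was lost without 80 d replicate 1 (-0.74, adjusted p = 0.111), 80 d replicate 2, or 145 d replicate 1, 3 or 4 (adjusted p from 0.0502 to 0.0802 for these 4), and the F test over all ages did not pass (adjusted p = 0.0787). The newborn differed from 80 d by -0.56 (adjusted p = 0.160) and from 145 d by 0.32 (adjusted p = 0.547).

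In hippocampus TGFB2 read 10.17, 10.27, 9.61 and 10.55 at 80 d and 9.01, 9.73, 9.62 and 9.88 in the newborn, with overlap. The difference of -0.59 did not pass (SE 0.24, adjusted p = 0.192, limma; 95% interval -1.10 to -0.08). The change of TGFB2 from 80 d to newborn was not shown to differ between regions (F test, adjusted p = 0.129), nor was that from 145 d to newborn (adjusted p = 0.363, where 0.0812% of genes passed).

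Genes of dividing cells also went down with age. The mean of the 5 named proliferation genes of 7 listed (CDK1, CCNA2, AURKA, PCNA and TYMS) went from 8.44 at 80 d (arrays from 8.20 to 8.71) to 7.50 in newborn cortex (7.44 to 7.62), and from 8.79 (8.67 to 8.90) to 7.42 (7.25 to 7.63) in brainstem. All 5 fell in both regions, where 44.7% and 42.6% of all genes passed. The mean also went from 8.96 to 7.48 in hippocampus, where 3 of the 5 fell and 5.64% of all genes passed. In hypothalamus it went from 8.59 to 7.65, where 4 fell and 17.5% of all genes passed. Their part in the values of TGFB2 and ACVR1 was not tested.

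ACVR1 was highest at 80 d in cortex. The arrays read 9.56, 9.26, 9.26 and 8.98 at 80 d, 8.87, 8.92, 8.01 and 8.28 at 145 d, and 8.61, 9.02, 8.65 and 8.58 in the newborn. All arrays of 145 d lay below all of 80 d, and 1 newborn array, replicate 2, lay above the lowest array of 80 d. ACVR1 fell by 0.75 from 80 to 145 d (SE 0.17, 1.68-fold, adjusted p = 0.00112, limma) and by 0.55 from 80 d to newborn (adjusted p = 0.0107). The processed signal gave -0.56 for the latter, with an adjusted p of 0.0551. The probes gave similar changes from 80 to 145 d, with -0.79 for A_70_P026786 and -0.70 for A_70_P026787.

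In brainstem ACVR1 was already lower at the second age. The arrays read 8.30, 8.45, 8.29 and 8.28 at 80 d, then 8.02, 7.81, 7.44 and 7.61 at 100 d, and 7.75, 7.83, 7.62 and 7.69 at 145 d. Those of 100 d and of 145 d all lay below those of 80 d. ACVR1 fell by 0.61 from 80 to 100 d (SE 0.15, 1.53-fold, adjusted p = 0.0142, limma), a step at which 10.9% of the genes of brainstem passed, and by 0.61 from 80 to 145 d (adjusted p = 0.00356). Without 100 d replicate 3 the first of these was -0.52 and no longer passed (adjusted p = 0.0741). The mean of NEUROD1 in brainstem went from 12.75 to 9.43 between 80 and 100 d, and a difference in the tissue taken was not tested. For the change to 145 d the processed signal gave -1.06 and the slides -0.59, -0.67 and -0.58. The newborn arrays read 7.66, 7.997, 7.90 and 8.44 and overlapped with 80 d through replicate 4, the array that stood apart. The difference of -0.33 between newborn and 80 d did not pass (adjusted p = 0.0854), but without that array it was -0.48 (adjusted p = 0.00887), with the processed signal -0.81 (adjusted p = 0.000854) and with probe A_70_P026786 alone -0.38 (adjusted p = 0.0398).

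In hippocampus ACVR1 followed the arrays that stood apart. At 80 d the arrays read 8.84, 8.82, 9.30 and 9.17. At 100 d they read 8.92, 8.50 and 6.98, at 120 d 9.101, 8.95, 8.76 and 7.26, and at 130 d 7.95, 7.93, 7.42 and 8.55. At 145 d they read 8.28, 8.58, 8.99 and 6.95, and in the newborn 8.82, 8.46, 7.196 and 8.64. In each of these later groups the lowest value came from the array that stood apart, and the 5 arrays read 6.95 to 7.42, below all of the other 18 (7.93 to 9.30). TGFB1 and TGFB2 did not separate in this way, with 6.70 to 7.24 on the 5 arrays against 6.85 to 7.54 for TGFB1 and 9.62 to 10.70 against 9.01 to 10.67 for TGFB2. Those 5 arrays also had fewer gene spots well above background (59.5 to 72.3%), and the part of that in the ACVR1 values was not tested.

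The difference of ACVR1 between newborn and 80 d in hippocampus was -0.75 (SE 0.49, adjusted p = 0.460, limma) with all arrays and -0.39 (SE 0.21, adjusted p = 0.297) without the 5. Between 145 and 80 d it was -0.83 (adjusted p = 0.433) and -0.42 (adjusted p = 0.304). Without those arrays the group means were 9.03 at 80 d, 8.71 at 100 d, 8.94 at 120 d, 8.15 at 130 d, 8.61 at 145 d and 8.64 in the newborn. In hypothalamus the 6 group means lay between 8.28 and 8.37, the smallest range of any gene and region here, and the F test over ages gave an adjusted p of 0.999. The interval of the difference between newborn and 80 d there, -0.38 to 0.35, leaves room for changes of the size that did not pass in brainstem.

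**Figure D2:**
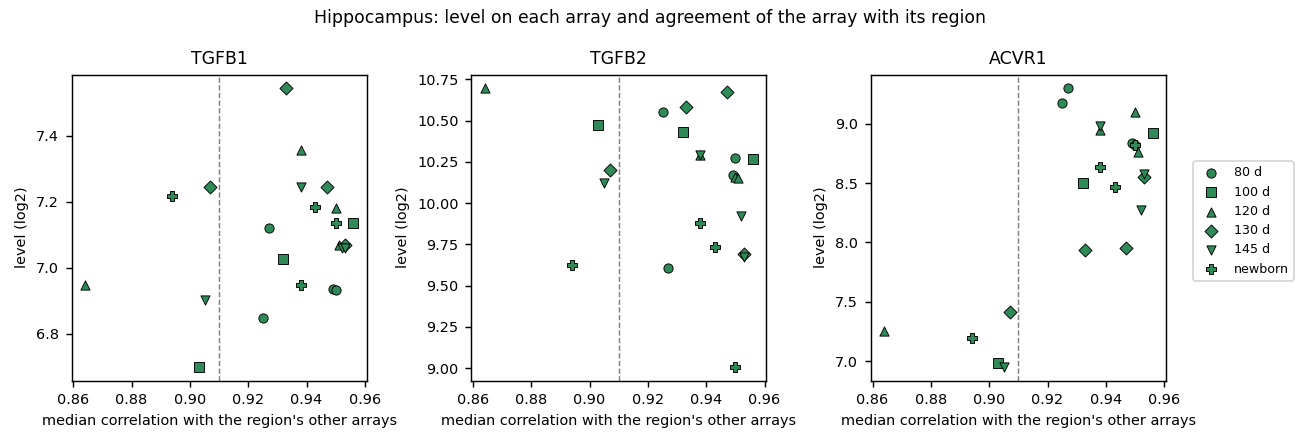
Log2 level of each gene on the 23 hippocampus arrays (vertical axes) against the median correlation of the array with the other arrays of the region (horizontal axes), with a symbol per age and a dashed line at 0.91. The 5 arrays left of the line have the lowest ACVR1 levels, 6.95 to 7.42, and are mixed with the others for TGFB1 and TGFB2.

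Counted over the 3 genes, the F test over all ages passed for 3 in cortex and for 3 in brainstem, where 45.8% and 40.1% of all genes passed, and for 0 in hippocampus (3.01%) and 0 in hypothalamus (14.8%), with TGFB2 at an unadjusted p under 0.05 in each of these. The brainstem calls of this F test were lost for TGFB1 without 80 d replicate 2, 120 d replicate 1 or 3 or 145 d replicate 3 or 4 (adjusted p up to 0.165), and for ACVR1 without 80 d replicate 1, 2 or 3 (up to 0.0777), and the cortex call of ACVR1 without 80 d replicate 1 (0.0677). The hypothalamus F test of TGFB2 passed without 130 d replicate 1 (adjusted p = 0.0209). From 80 d to newborn 3 passed in cortex (44.7% of all genes), 1 in brainstem (42.6%) and 0 in both hippocampus (5.64%) and hypothalamus (17.5%), and in each of the last 2 regions TGFB2 had an unadjusted p under 0.05. From 80 to 145 d it was 2 in cortex (41.4%), 3 in brainstem (37.1%), 0 in hippocampus (4.38%; 0 also at an unadjusted p under 0.05) and 1 in hypothalamus (13.4%). From 145 d to newborn it was 1 in brainstem (4.82%) and 0 in cortex (0.256%), hippocampus (0.00788%) and hypothalamus (1.79%), where TGFB2 in cortex and TGFB1 in hypothalamus had an unadjusted p under 0.05. With 3 genes, nothing particular to them is read from these counts.

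**Figure D3:**
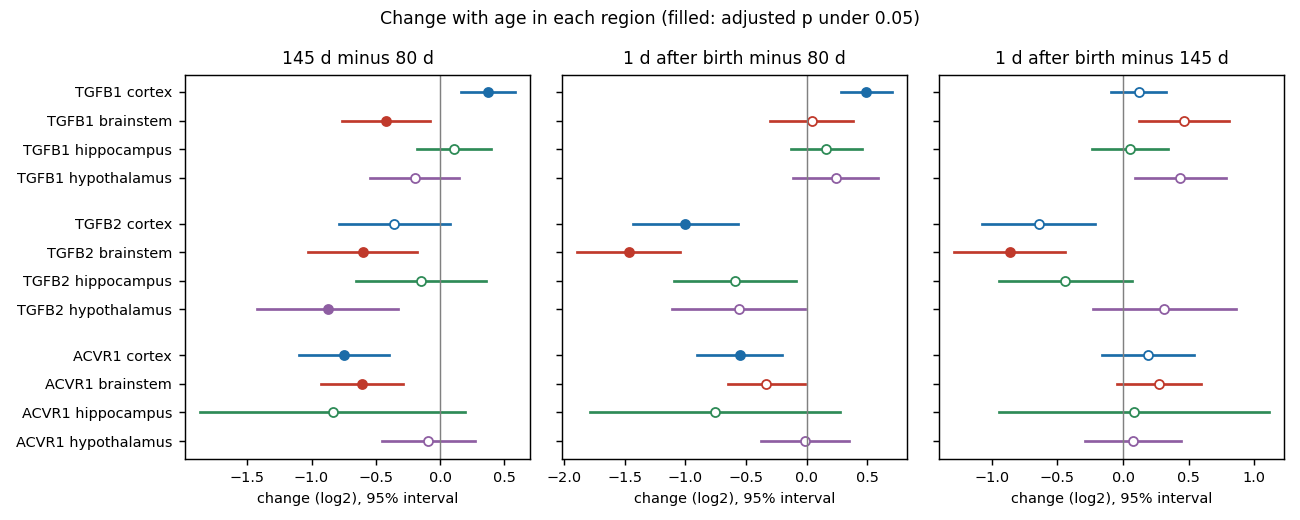
Log2 change of each gene (horizontal axes) in each region, in panels from 80 to 145 d, from 80 d to newborn and from 145 d to newborn, with 95% intervals from limma and filled points where the adjusted p was under 0.05. TGFB1 in cortex lies to the right of 0 and TGFB2 to the left of it in cortex and brainstem, and the ACVR1 intervals of hippocampus are the widest.

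The levels of all 3 genes differed between regions when averaged over the 6 ages (F test in limma, adjusted p = 8.09e-07 for TGFB1, 8.38e-14 for TGFB2 and 4.78e-09 for ACVR1), as did those of 85.9% of all genes. Of all genes 54.3% passed between cortex and brainstem, 54.2% between cortex and hippocampus, 50.1% between cortex and hypothalamus, 49.1% between brainstem and hippocampus, 47% between brainstem and hypothalamus and 48.4% between hippocampus and hypothalamus. TGFB1 averaged 7.47 in brainstem, 7.34 in cortex, 7.31 in hypothalamus and 7.09 in hippocampus. Of its neighbors in that order, brainstem and cortex did not pass (difference of cortex from brainstem -0.13, adjusted p = 0.0536, with under 0.05 in some settings), cortex and hypothalamus did not (adjusted p = 0.7502), and hypothalamus lay 0.23 above hippocampus (adjusted p = 0.00136). The TGFB1 differences of hippocampus from cortex and brainstem kept their direction and were larger with the processed signal, at 0.55 and 1.02 in place of 0.25 and 0.38.

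TGFB2 averaged 10.54 in cortex, 10.12 in hippocampus, 9.68 in brainstem and 9.65 in hypothalamus. Cortex lay 0.42 above hippocampus (adjusted p = 0.000253, limma) and hippocampus 0.44 above brainstem (adjusted p = 0.000120). Brainstem and hypothalamus, 0.03 apart, did not differ beyond the spread (adjusted p = 0.828). ACVR1 averaged 8.85 in cortex, 8.35 in hippocampus, 8.34 in hypothalamus and 7.93 in brainstem. Cortex was 0.92 above brainstem (adjusted p = 3.2e-10), and 0.50 above hippocampus, or 0.17 above it without the arrays that stood apart (adjusted p = 0.0482). Hippocampus and hypothalamus differed by 0.01 (adjusted p = 0.940) over all arrays and by 0.34 (adjusted p = 0.000253) without those arrays. With the groups of region and age ranked by mean, every pair of neighbors in the order overlapped in its arrays for each gene.

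**Figure D4:**
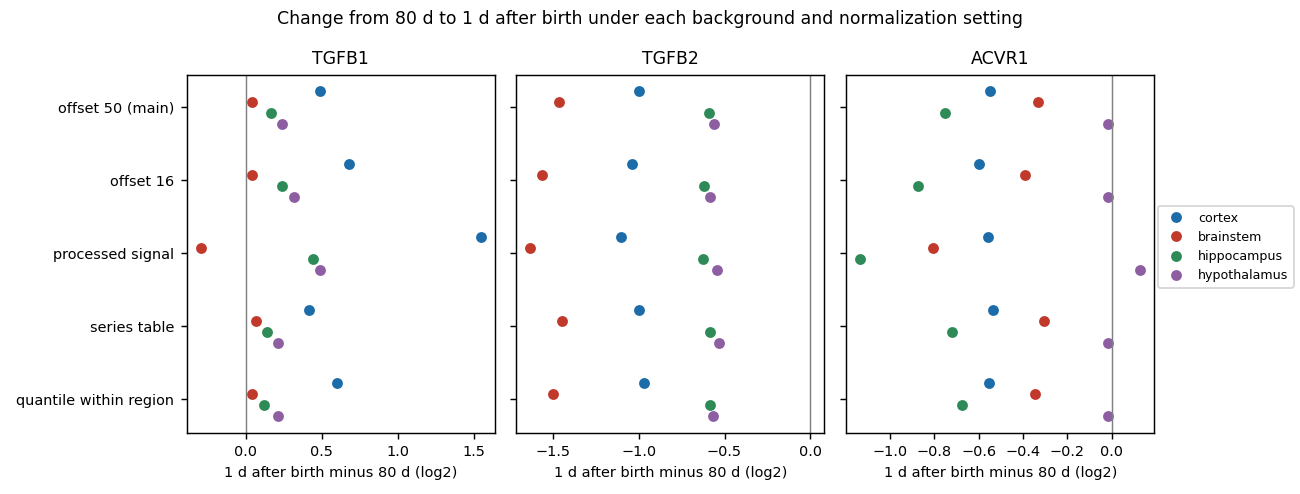
Log2 change from 80 d to newborn (horizontal axes) of each gene in the 4 regions, 1 point per region, with a line of points for each of the main normalization, a background offset of 16, the processed signal, the authors' series table and quantile normalization within each region. The TGFB1 change in cortex goes from 0.49 to 1.54 with the processed signal, while TGFB2 keeps its sign and nearly its size.

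Among the genes whose 24 group means ran most like those of a member, out of 832 named genes measured in all regions, TGFB1 was nearest to TRPC4AP (Pearson's r = 0.79), CAPNS1 (0.75) and GLUT-1 (0.73). TGFB2 was nearest to CSNK1E (0.86), MYC (0.83) and NPY (0.79), and ACVR1 to EAAT3 (0.89) and MGLUR3 (0.86). Between the members r was -0.19 for TGFB1 and TGFB2, -0.25 for TGFB1 and ACVR1, and 0.56 for TGFB2 and ACVR1. These are descriptions over group means that share arrays and normalization.

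Of 87 genes listed for the rest of the pathway and its members, 37 were named on the array, the 3 members and 34 others. From 80 d to newborn 4 of the 33 tested genes rose and 10 fell in cortex, where 44.7% of all genes passed, with a median of -0.04 against -0.03 over all genes. In brainstem 3 rose and 12 fell, where 42.6% of all genes passed, with a median of -0.15 against 0.03. In hypothalamus 1 of 32 rose and 3 fell, where 17.5% of all genes passed. In hippocampus 0 of 33 passed, against 5.64% of all genes. At an unadjusted p under 0.05 it was 6 of 33, against 2268 of all 12685 genes. From 80 to 145 d 6 rose and 8 fell in cortex (41.4% of all genes passed) and 3 rose and 9 fell in brainstem (37.1%). In hypothalamus 1 rose and 1 fell (13.4%), and in hippocampus 0 passed (4.38%). At an unadjusted p under 0.05 it was 3 in hippocampus, against 2068 of all 12685 genes. From 145 d to newborn 0 passed in any region by limma, where 4.82% of all genes passed in brainstem, 0.256% in cortex, 1.79% in hypothalamus and 0.00788% in hippocampus. At an unadjusted p under 0.05 it was 4 in brainstem, 3 in both cortex and hypothalamus and 0 in hippocampus. Of all genes it was 2674 of 12770 in brainstem, 990 of 12898 in cortex, 2490 of 12926 in hypothalamus and 346 of 12685 in hippocampus.

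Of the ligands, INHBA, which encodes the subunit of activin A, moved in opposite directions. It fell by 1.60 in cortex from 80 d to newborn (SE 0.22, adjusted p = 4.54e-06, limma), from 12.82 ± 0.67 to 11.21 ± 0.25, and rose by 1.19 in brainstem (SE 0.16, adjusted p = 7.45e-06), from 9.71 ± 0.09 to 10.91 ± 0.37 (SD, n = 4). The changes of cortex and brainstem differed by -2.80 (SE 0.46, adjusted p = 6.81e-06). Its probes overlap by 59 of 60 bases and are no independent readings. One of them is shown, with no base marked, since its gene is the one whose change differed most clearly between regions.
INHBA probe A_70_P051056: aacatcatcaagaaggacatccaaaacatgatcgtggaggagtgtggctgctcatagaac
The bone morphogenetic proteins BMP4, BMP6 and BMP7, which signal through receptors such as ACVR1, rose in cortex by 0.91, 1.36 and 1.03, and their changes differed between regions (adjusted p = 0.0109, 0.000509 and 0.00320). In brainstem they differed by -0.49, -0.14 and 0.10 and did not pass. Over the list, 6 of 32 genes differed between regions in this change, where 12.4% of all genes did, the other two being MMP2 and COL3A1.

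Of the 6 other receptors, the activin type II receptors ACVR2A and ACVR2B fell in cortex (by 0.59 and 1.32), brainstem (by 0.76 and 0.97) and hypothalamus (by 0.68 and 0.95). In newborn brainstem ACVR2B spread widely (8.21 ± 1.06, SD, n = 4) and was well above background on 3 of the 4 arrays. TGFBR1, the type I receptor of the TGF-beta ligands, fell in cortex by 0.36 and in brainstem by 0.17, and BMPR1B rose in cortex by 0.64. Of the 5 SMAD genes, SMAD1, SMAD2 and SMAD4 fell in cortex and in brainstem, SMAD4, the partner shared by all branches, by 0.47 and 0.87. Of the 6 inhibitors, FST, which binds activin, fell in cortex by 1.29, in brainstem by 1.14 and in hypothalamus by 0.71. Of the 5 genes of latency and activation, ITGAV, an integrin chain that helps release the latent ligands, rose in brainstem by 0.46 and MMP2 fell there by 0.79. Of the 3 target genes with a probe, TIMP1 fell in cortex by 1.07 and in brainstem by 1.09. In hippocampus the spread was larger, and for example ACVR2A differed by -1.20 with an adjusted p of 0.125.

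**Figure D5:**
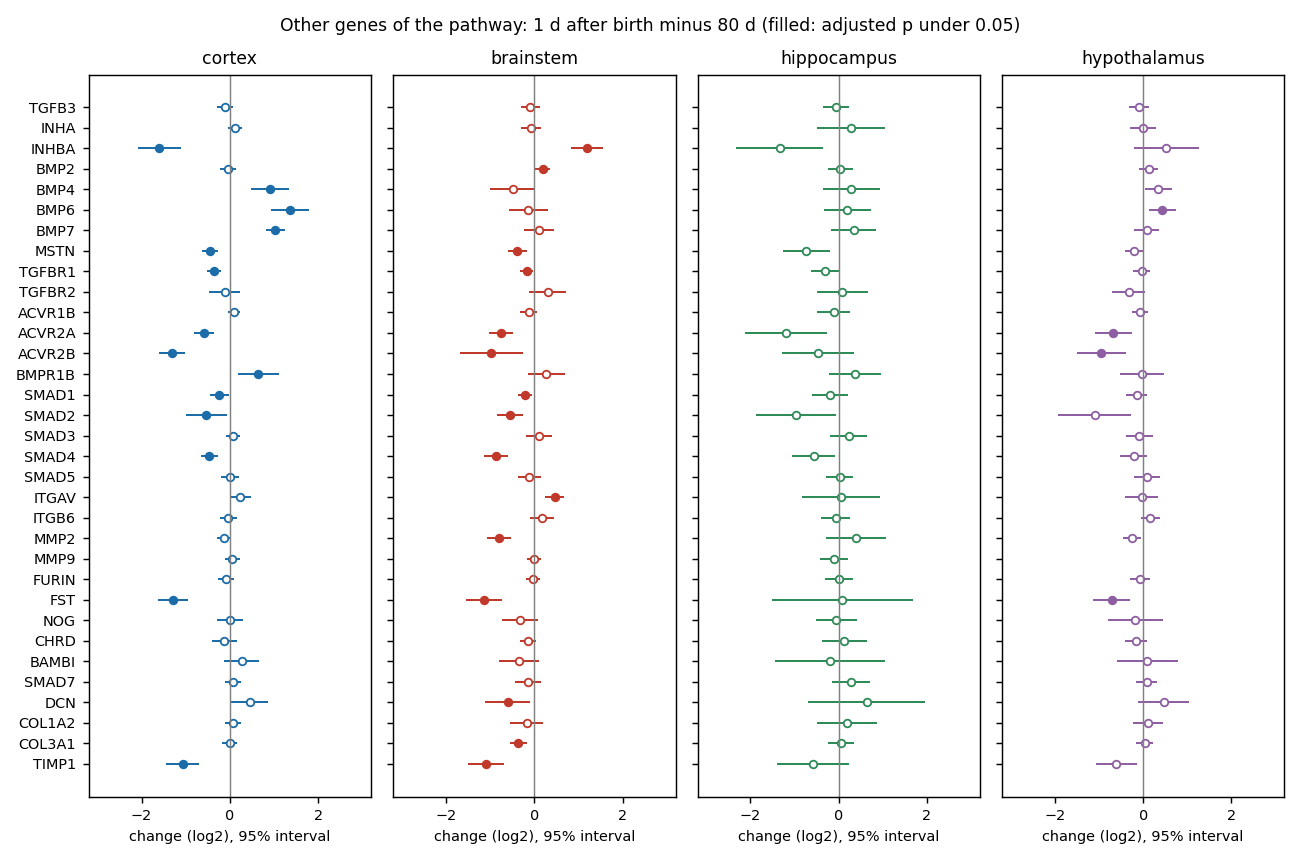
Log2 change from 80 d to newborn of the listed pathway genes with a named probe, (horizontal axes) in 1 panel per region, with 95% intervals and filled points where the adjusted p from limma was under 0.05. The receptors ACVR2A and ACVR2B lie below 0 in all 4 regions, and INHBA lies on opposite sides of 0 in cortex and brainstem.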

How the data were processed

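Total RNA of 95 samples was hybridized, 1 sample per 1-color array, and the deposited files hold Feature Extraction output (version 10.1.1.1 per the file headers) with the mean and background intensity of 15744 spots, of which 15208 are gene spots. A table of log2 values for 11138 probes, deposited by the authors, served as an alternative. Background was corrected with normexp (offset 50) and arrays were quantile normalized, in limma 3.58.1 (R 4.3.3). Outlier-marked spots were left out, and a probe was kept in a region if on 4 or more arrays it reached 1.1 times the level below which 95% of negative controls lay. This left 12685 to 12927 genes per region and 12314 genes in the fit over all 24 groups. Probes of a gene were averaged.

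Each region was fitted with its 6 ages as groups, and differences between regions were tested in one fit over all arrays, with Benjamini-Hochberg adjustment over all genes at 0.05. A change between ages was compared between pairs of regions only where its F test over the regions passed, a limit set after the results were seen. Of the 15008 probes, 1557 had a gene symbol. The members, the pathway and marker lists and the tests were chosen with earlier results of these data known. Genes named are the members, the listed pathway and marker genes that passed, and the 3 genes most like each member, of which 1 is not reported here. Alternatives were offset 16, the processed signal (scaled at percentile 75 of each array), the series table, normalization within region, outlier-marked spots kept, no filter, single probes, blocks for replicate number, slide and animal, a robust variance trend and leaving out arrays. Leaving out the dim area of 1 brainstem array gave no value, since no member probe lies in it. The number of arrays limits the precision. The fits were tested on simulated data.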

Additional observations from a re-analysis of the deposited data

Results flagged for a closer look

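Among 69 groups of 4 arrays, 4 had 1 array far from the other 3 by Dixon's test, which chance gives in about 1 of 20 groups. TGFB1 was high on cortex 120 d replicate 4 (7.51). TGFB2 was high on hypothalamus 120 d replicate 1 (10.29). ACVR1 was high on cortex newborn replicate 2 (9.02), the array that made newborn and 80 d overlap, and on brainstem 80 d replicate 2 (8.45).

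The change of TGFB1 from 80 to 145 d differed between regions (adjusted p = 0.0174, limma F test), with 0.37 in cortex and -0.42 in brainstem.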

How the results depend on the processing

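The TGFB1 rise in cortex and the TGFB2 falls from 80 d to newborn in cortex and brainstem kept their direction and side of the threshold in every setting run. With the processed signal the ACVR1 change from 80 d to newborn was -0.56 in cortex (no longer past the threshold; F over ages, adjusted p = 0.0692), -0.81 in brainstem (now past it) and 0.13 in hypothalamus (sign turned), and that of TGFB1 in brainstem turned to -0.30. With that signal TGFB1 from 145 d to newborn in hippocampus turned to -0.12, the cortex to brainstem level of TGFB1 was -0.47, the F test between regions of its change to newborn gave 0.00445, its 80 to 145 d change differed by 1.60 between cortex and hypothalamus and by -1.43 between brainstem and hippocampus, and the ACVR1 level of hippocampus against hypothalamus turned to -0.0761 (-0.0327 with offset 16). Without the arrays that stood apart, an alternative chosen after seeing the data, the values were -0.12 for TGFB1 and -0.48 for ACVR1 in brainstem to newborn, -0.0326 for TGFB1 in hippocampus across birth, 0.57 for the TGFB1 pair of cortex and hypothalamus and 0.34 for the ACVR1 level of hippocampus over hypothalamus. The TGFB1 fall in brainstem to 145 d lost its call with the series table (-0.34), with no filter and with slide as a block (both -0.42), and its F test with slide as a block (0.0640). The TGFB1 level of cortex against brainstem passed with the series table (-0.12) and with animal as a random block (-0.13). By probe, ACVR1 gave -0.38 in brainstem to newborn with A_70_P026786, also its brightest probe, -0.0735 in hippocampus and -0.0132 in hypothalamus across birth, and with A_70_P026787 0.0229 in hypothalamus to newborn and 0.0590 for the brainstem F test. With slide as a block ACVR1 in hypothalamus turned to 0.0794 to newborn and 0.00357 to 145 d, and the TGFB2 F test there passed (0.0226). The cause of these differences was not tested.

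Replicate numbers were not taken to pair samples, since the labels do not say that a number marks an animal. Between ages of a region, the lowest correlation of deviations at the same number was between -0.62 and -0.23 by region. The median was 0.18 in cortex (-0.10 for other pairs), 0.12 in hypothalamus (-0.0814), 0.0332 in brainstem (-0.0143) and 0.0121 in hippocampus (0.0548). Different ages are different animals, so these values cannot show whether a number marks an animal. Between regions within an age the correlations at the same number ran from -0.37 to 0.59. Their median was 0.0477, against -0.0482 for other pairs. With the replicate block the TGFB1 fall in brainstem to 145 d was -0.42 (adjusted p = 0.0657) with an F test of 0.0600, and the TGFB2 F test in hypothalamus passed (0.0262). No other call of the 3 genes changed under the replicate block.

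With 1 array left out, the ranges that crossed the threshold or 0 were as follows. To newborn from 80 d they were -0.48 to -0.22 for ACVR1 in brainstem, -0.11 to 0.15 in hypothalamus, and -0.12 to 0.19 for TGFB1 in brainstem. To 145 d they were -0.49 to -0.30 for TGFB1 and -0.79 to -0.41 for TGFB2 in brainstem, -1.03 to -0.74 for TGFB2 and -0.21 to 0.0704 for ACVR1 in hypothalamus, and to 100 d -0.71 to -0.52 for ACVR1 in brainstem. Across birth they were -0.33 to 0.44 for ACVR1 and -0.000558 to 0.11 for TGFB1 in hippocampus, -0.0191 to 0.19 for ACVR1 in hypothalamus, and 0.30 to 0.62 for TGFB1 and -1.05 to -0.67 for TGFB2 in brainstem. The adjusted p of the F tests ran from 0.00534 to 0.0677 for ACVR1 in cortex, from 0.00672 to 0.165 for TGFB1 and 0.00498 to 0.0777 for ACVR1 in brainstem, and from 0.0209 to 0.186 for TGFB2 in hypothalamus.

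The count of all genes that changed across birth was 33 in cortex (14 with the processed signal, 2 to 172 with 1 array left out), 615 in brainstem (199 to 1301), 1 in hippocampus (0 with the processed signal, 15 without the arrays that stood apart, 1 to 26) and 232 in hypothalamus (647 with the processed signal, 659 with slide as a block, 33 to 321). In hippocampus it was 715 to newborn and 556 to 145 d, and 1208 and 849 without the arrays that stood apart (453 to 857 and 358 to 720 with 1 array left out).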

Other observations

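Astrocyte markers also moved with age. The 4 named genes of 8 listed (GFAP, AQP4, GJA1 and MT3) all rose in cortex from 80 d to newborn, with their mean going from 10.72 to 12.49, 2 rose in brainstem (GFAP and MT3), 3 in hippocampus (GFAP, GJA1 and MT3), and in hypothalamus 2 rose and 1 fell. Of all genes 44.7% passed this comparison in cortex and 42.6% in brainstem, against 17.5% in hypothalamus and 5.64% in hippocampus. Of the endothelial markers, 0 of 4 in cortex and 0 of 3 in each other region passed in that comparison. Their part in the values of TGFB1, TGFB2 and ACVR1 was not tested.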
